A study of Mus musculus with 13 samples.

Results

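The semaphorin, plexin, ephrin, Eph, Slit, Robo and netrin genes named for axon guidance were described by 2 histone marks near their transcription start sites (TSS) and by OLIG2 binding along the oligodendrocyte lineage. The set holds 60 members of the 21951 protein-coding genes of GENCODE release M21, 32 ligands and 28 receptors, chosen by name. The choice was made with earlier results of these data known. For each member, the listed H3K4me3 and H3K27me3 called peaks within 2 kb of any TSS and the OLIG2 called peaks in the gene and 5 kb upstream were taken, on mm10. The study profiled chromatin by ChIP-Seq, in which DNA bound by a protein is precipitated with an antibody and sequenced, in neural stem cells (NSCs), oligodendrocyte precursor cells (OPCs) and newly formed oligodendrocytes (NFOs). NSCs were purchased cells from the cortex of CD-1 mice at embryonic day 14.5, grown with EGF and FGF, although the strain field of their labels reads C57BL/6. OPCs and NFOs were immunopanned from the brains of C57BL/6 mice at postnatal day 7, OPCs on plates for PDGFRα and NFOs on plates for GalC. All groups are labelled untreated, and no allele or transgene is named.

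Guidance cues steer growing axons and migrating cells. Semaphorins act through plexins, and most of the secreted class 3 semaphorins also need neuropilins. Ephrins are tethered to the cell surface and signal through Eph receptor kinases on neighbouring cells, Slits are secreted ligands of Robo receptors, and netrins act through DCC and UNC5 receptors. In the oligodendrocyte lineage several of these pairs are known to attract or repel migrating OPCs and to act on process outgrowth. H3K4me3 is found at active promoters and H3K27me3 is laid down by Polycomb complexes at repressed ones, and a promoter with overlapping peaks of both is called bivalent. OLIG2 is a basic helix-loop-helix transcription factor that binds E-box sequences.

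There was 1 library per mark and stage, so no difference between stages could be set against a spread between replicates and no test was made. Intervals are exact binomial (Clopper-Pearson) 95% intervals over the 60 members and cover counting error only. Read numbers are not known for any peak. NSC peaks came from single-end and OPC and NFO peaks from paired-end reads by their names, so strain, culture and read type cannot be told apart from the NSC stage. The histone labels name the antibody of the other mark than the titles do. The peak names carry the mark of the titles, and the titles were used. Across all protein-coding genes H3K4me3 was listed at 64.3% (NSCs), 60.7% (OPCs) and 43.6% (NFOs). Of 6 OPC markers, 6 were K4 only in OPCs, 5 in NSCs and 5 in NFOs. Of 7 NSC markers, 6 were K4 only and 1 bivalent in NSCs, while 4 were K4 only and 3 mixed in OPCs. Most of these markers thus had H3K4me3 in other stages too. Of the NFO markers reported here, Cnp had H3K4me3 in NFOs, while Mbp, Mog, Mag and Enpp6 had no listed peak of either mark there, so the NFO lists lack this mark at genes that define the cell type. Of these genes only Mbp had H3K4me3 in NSCs or OPCs. Of the markers of other cells, 2 of 7 neuronal and 1 of 6 astrocytic genes were K4 only in OPCs and in NFOs. A further 2 neuronal genes and 1 astrocytic gene were mixed in OPCs. In NFOs 1 neuronal gene was bivalent and 1 mixed. The microglial marker Csf1r was K4 only in OPCs, and the other 5 microglial markers had no H3K4me3 in any stage. Of 5 endothelial markers, 1 was mixed in OPCs and 1 bivalent in NFOs, and none was K4 only in any stage. What such cells add to the lists was not tested.

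In NSCs most guidance genes carried H3K4me3 alone, and the share with H3K27me3 was higher in OPCs and NFOs. H3K4me3 was listed at 57 of 60 members in NSCs (95%, interval 86.1 to 99.0), at 54 in OPCs (interval 79.5 to 96.2) and at 31 in NFOs (51.7%, 38.4 to 64.8). H3K27me3 was listed at 13 members in NSCs (21.7%, 12.1 to 34.2), beside 15.1% of all protein-coding genes. It was listed at 23 members in OPCs (38.3%, 26.1 to 51.8) beside 16.4%, and at 22 in NFOs (36.7%, 24.6 to 50.1) beside 9.56%. The interval of the members lay above the share over all genes in OPCs and NFOs and held it in NSCs. Because the members were chosen with earlier results of these data known, this is no test of the set. Among 19 other guidance receptors and ligands, H3K27me3 was listed at 4 (NSCs), 4 (OPCs) and 3 (NFOs).

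**Figure D1:**
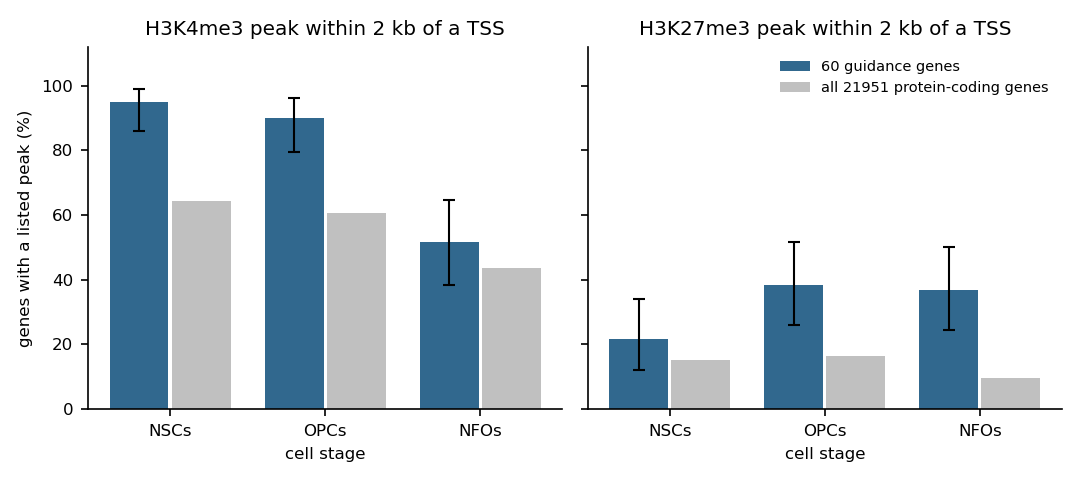
Percentage of genes with a listed H3K4me3 (left) or H3K27me3 (right) called peak within 2 kb of a TSS in NSCs, OPCs and NFOs, for the 60 guidance genes (blue, bars are exact binomial 95% intervals) and all 21951 protein-coding genes (grey). H3K27me3 was at 21.7%, 38.3% and 36.7% of the guidance genes and at 15.1%, 16.4% and 9.56% of all genes.

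A gene is called K4 only or K27 only where all its peaks are of that mark, bivalent where its peaks all form overlapping domains of both marks, and mixed where it has more than 1 of these kinds. In NSCs 45 members were K4 only (75.0%, beside 52.1% of all genes), 6 bivalent (10.0%, 5.29%), 6 mixed (10.0%, 7.08%), 1 K27 only (1.67%, 3.07%), and 2 had no mark (3.33%, 32.4%). In OPCs 34 were K4 only (56.7%, 49.5%), 7 bivalent (11.7%, 2.99%), 13 mixed (21.7%, 8.51%), 3 K27 only (5.0%, 4.92%), and 3 had no mark (5.0%, 34.1%). In NFOs 18 were K4 only (interval 18.8 to 43.2, beside 38.9%), 5 bivalent (8.33%, 1.56%), 8 mixed (13.3%, 3.47%), 9 K27 only (15.0%, 4.53%), and 20 had no mark (33.3%, 51.6%). The state differed between NSCs and OPCs for 23 members (38.3%, beside 23.3% of all genes), between OPCs and NFOs for 31 (51.7%, 28.2%), and between NSCs and NFOs for 39 (65.0%, 35.2%). The counts of bivalent and K27 only members are small and depended on the peak filter: with the fold enrichment and FDR filter of the Methods, 3 members were bivalent in NSCs and 3 in NFOs.

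**Figure D2:**
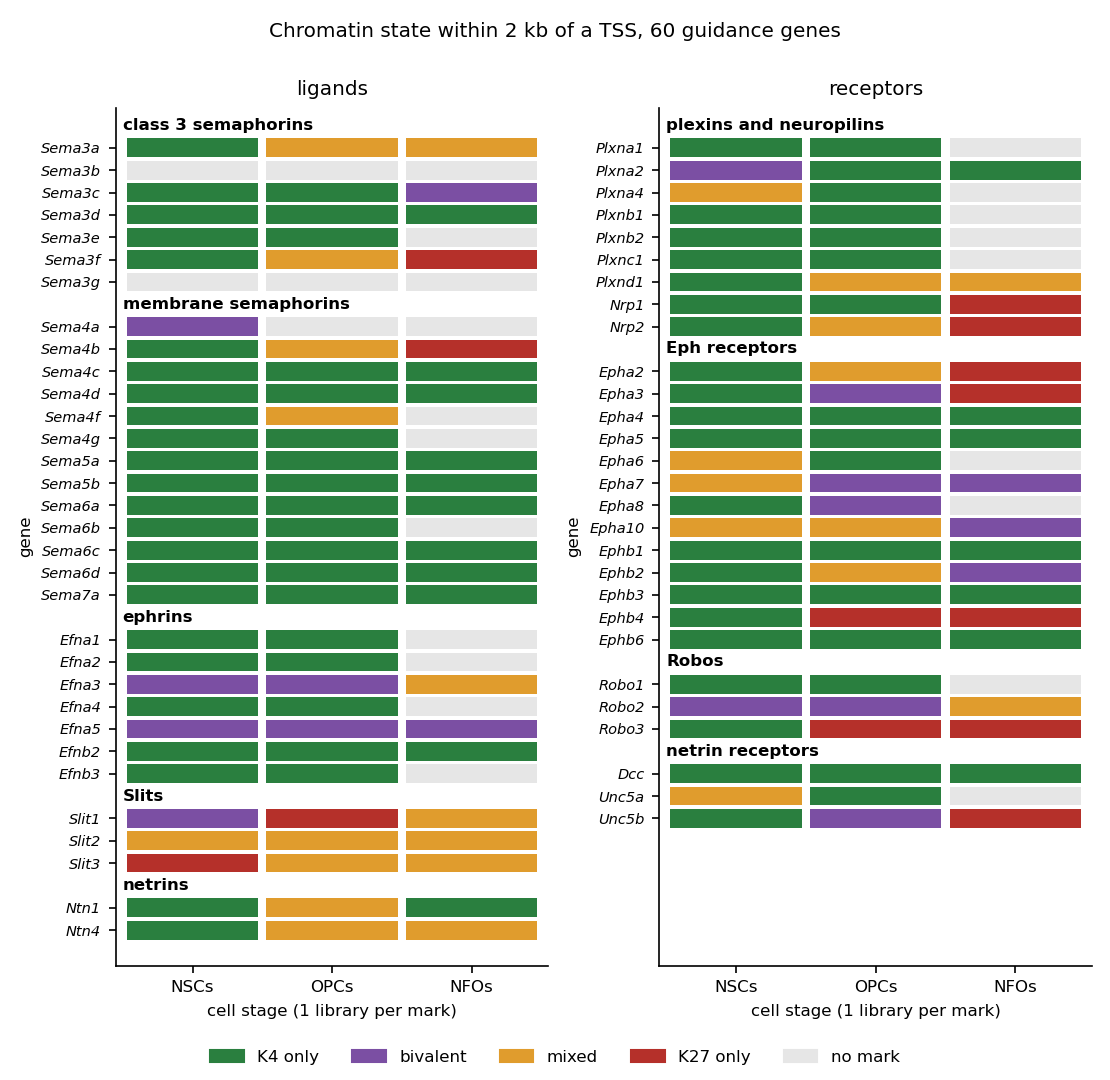
Chromatin state of each of the 60 guidance genes within 2 kb of a TSS in NSCs, OPCs and NFOs, ligands on the left and receptors on the right, grouped by family. Green is K4 only, purple bivalent, orange mixed, red K27 only and light grey no listed peak. The NFO column holds 9 red and 20 grey cells, the NSC column 1 red and 2 grey.

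Among the 32 ligands, 24 (NSCs), 18 (OPCs) and 11 (NFOs) were K4 only, and 11 had no mark in NFOs. Of the 28 receptors, 21 were K4 only in NSCs, 16 in OPCs and 7 in NFOs, 7 were K27 only in NFOs and 9 had no mark there. The families differed in where the marks lay. All 3 Slits had a listed H3K27me3 peak in each stage, although those of Slit2 in NSCs did not pass the filter of the Methods. Of 13 Eph receptors, the number with H3K27me3 was 3 (NSCs), 7 (OPCs) and 6 (NFOs). Of 9 plexins and neuropilins, 9 had H3K4me3 in NSCs and OPCs, and only Plxna2 and Plxnd1 had it in NFOs. In NFOs H3K4me3 was listed at 8 of 13 membrane-bound semaphorins and at 8 of 13 Eph receptors, while H3K27me3 was listed at 1 of those semaphorins, Sema4b, and at 6 of those receptors.

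The promoters of 3 members are shown because their states stand apart: Efna5 was bivalent in all stages, Robo3 went from K4 only in NSCs to K27 only in OPCs and NFOs, and Sema3g had no mark in any stage. Each runs from 250 bases before to 50 bases after a RefSeq start on GRCm38.p6 and is written 5′ to 3′ on the strand of the gene, with CpG dinucleotides in capitals. The windows are chr17:62881268-62881567 on the minus strand for Efna5, chr9:37433126-37433425 on the minus strand for Robo3 and chr14:31217623-31217922 on the plus strand for Sema3g.
Efna5: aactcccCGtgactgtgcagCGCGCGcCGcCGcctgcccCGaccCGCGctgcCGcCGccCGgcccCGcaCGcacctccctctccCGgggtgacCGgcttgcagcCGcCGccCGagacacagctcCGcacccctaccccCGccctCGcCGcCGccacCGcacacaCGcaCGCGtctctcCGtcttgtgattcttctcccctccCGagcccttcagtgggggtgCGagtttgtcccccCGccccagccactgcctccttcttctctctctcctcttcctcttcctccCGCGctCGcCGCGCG
Robo3: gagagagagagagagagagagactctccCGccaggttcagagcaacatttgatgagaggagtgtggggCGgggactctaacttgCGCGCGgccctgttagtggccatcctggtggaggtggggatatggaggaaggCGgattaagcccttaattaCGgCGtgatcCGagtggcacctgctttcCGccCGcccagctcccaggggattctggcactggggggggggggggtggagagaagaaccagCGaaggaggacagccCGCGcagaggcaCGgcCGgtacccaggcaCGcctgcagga
Sema3g: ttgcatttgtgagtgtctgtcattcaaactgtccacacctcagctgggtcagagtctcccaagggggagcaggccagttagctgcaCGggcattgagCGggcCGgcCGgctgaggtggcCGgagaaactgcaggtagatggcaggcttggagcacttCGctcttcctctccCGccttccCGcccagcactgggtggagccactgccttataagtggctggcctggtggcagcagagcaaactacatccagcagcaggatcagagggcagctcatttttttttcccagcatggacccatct
The Efna5 window holds 38 CpG sites, an observed over expected CpG ratio of 1.10, that of Robo3 holds 17 (0.60) and that of Sema3g 8 (0.31). RefSeq promoters were matched for 51 of 60 members and 16522 protein-coding genes. The median ratio was 0.69 over the members (0.10 to 1.10) and 0.60 over all genes matched. It was 0.74 for the 26 members with H3K27me3 in a stage and 0.69 for the 25 without.

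A set of 12 members had H3K27me3 in OPCs and NFOs and not in NSCs, 20.0% of the set (10.8 to 32.3), beside 3.64% of all protein-coding genes. They are the ligands Sema3a, Sema3f, Sema4b and Ntn4 and the receptors Plxnd1, Nrp2, Epha2, Epha3, Ephb2, Ephb4, Robo3 and Unc5b. In NSCs all 12 were K4 only. With the fold enrichment above 3.5 and FDR filter the count was 13 (beside 3.15%), without Sema3a, Sema3f and Epha2 and with Epha7, Efna3, Slit2 and Robo2. Above 5 it was 3 (beside 1.31%), and with H3K27me3 peaks of at least 1 kb alone it was 5 (beside 1.41%).

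Ephb4 is a receptor for ephrin-B2. In NSCs a H3K4me3 peak of 3737 bp with a fold enrichment of 7.60 covered its TSS, and no H3K27me3 peak was listed. In OPCs H3K4me3 was not listed and H3K27me3 peaks of 812 bp and 904 bp had fold enrichments of 12.6 and 3.31. In NFOs 1 H3K27me3 peak remained in the list, 261 bp wide with a fold enrichment of 8.31. Robo3, a divergent Robo known from commissural axons, had a H3K4me3 peak of 1055 bp in NSCs at a fold enrichment of 4.10. In OPCs it had 3 H3K27me3 peaks, the widest of 1657 bp at 3.70, and in NFOs 1 of 2539 bp at 4.18 (chr9:37432400-37434938) that covered the promoter shown above. These 2 genes were the only members K4 only in NSCs and K27 only in both later stages, a path taken by 0.446% of all genes.

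Epha3, an Eph receptor for ephrin-A ligands, and Unc5b, a repellent netrin receptor, were K4 only in NSCs, bivalent in OPCs and K27 only in NFOs. At Epha3 the H3K4me3 fold enrichment was 6.83 in NSCs and 6.16 in OPCs and no peak was listed in NFOs, while the widest H3K27me3 peak was 824 bp (4.06) in OPCs and 1040 bp (5.24) in NFOs. At Unc5b H3K4me3 was at 7.70 in NSCs and 3.76 in OPCs and not listed in NFOs, and the widest H3K27me3 peak was 1095 bp (4.39) in OPCs and 1540 bp (5.26) in NFOs. Both genes thus had overlapping listed peaks of the 2 marks in OPCs and peaks of H3K27me3 alone in NFOs. The marks come from separate libraries of many cells, and the paper cautions that their overlap was not measured in single cells.

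The 4 members Sema3f, Sema4b, Nrp2 and Epha2 were K4 only in NSCs, mixed in OPCs and K27 only in NFOs. Nrp2 encodes a neuropilin that binds class 3 semaphorins, SEMA3F among them. With the filter of the Methods Nrp2 was bivalent and Sema3f K4 only in OPCs. Sema3a and Nrp1, another such pair, differed in their paths: Sema3a was K4 only, mixed and mixed in the order of the stages, and Nrp1 K4 only, K4 only and K27 only. At Nrp2 the highest H3K4me3 fold enrichment was 8.66 in NSCs and 5.82 in OPCs, and the widest H3K27me3 peak was 1092 bp (6.48) in OPCs and 1079 bp (3.68) in NFOs. At Sema3f H3K4me3 was at 4.81 in NSCs and 3.58 in OPCs. Its H3K27me3 peaks in OPCs, at 3.12 and 3.04, had an FDR of 0.075 and 0.0964 and did not pass the filter of the Methods, and those in NFOs, at 3.78 and 4.30, did. At Sema4b, a transmembrane semaphorin, the widest H3K27me3 peak was 2695 bp in OPCs (chr7:80187677-80190371) and 1937 bp in NFOs (chr7:80184607-80186543). The highest H3K4me3 fold enrichment was 9.87 in NSCs and 5.59 in OPCs, in a peak over another TSS (chr7:80198502-80199164 in OPCs). No H3K4me3 peak of the gene was listed in NFOs. At Epha2 the H3K27me3 peak was 796 bp (3.83) in OPCs and 1656 bp (3.48, FDR 0.0519) in NFOs.

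The remaining 4 of the 12, Sema3a, Plxnd1, Ntn4 and Ephb2, had both marks listed in NFOs. Sema3a, a secreted repellent, had H3K4me3 at 13.8 (NSCs), 13.5 (OPCs) and 14.5 (NFOs), and its H3K27me3 peaks were at most 217 bp wide. Plxnd1, a plexin that binds SEMA3E, had a H3K27me3 peak of 388 bp in the OPC list, 1704 bp from the nearest TSS, and of 620 bp in the NFO list, 1467 bp from it. Ntn4, a netrin of basement membranes, had H3K4me3 at 15.2 (NSCs), 9.44 (OPCs) and 11.5 (NFOs), with a H3K27me3 peak of 1209 bp (5.56) in OPCs and of 560 bp (3.55) in NFOs. Ephb2, a receptor for ephrin-B ligands, had its H3K27me3 peak 1251 bp from the TSS in OPCs, 1129 bp wide with a fold enrichment of 9.18, and was bivalent in NFOs through a peak of each mark at this place. The H3K4me3 peak over its TSS in OPCs (5.42) was not listed in NFOs, and the H3K4me3 peak listed there instead, 1363 bp from the TSS, had a fold enrichment of 2.97, so that the gene was K27 only in NFOs with the filter of the Methods. Only 1 of 60 members, Sema3g, had a TSS of another protein-coding gene within 2 kb.

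H3K27me3 was listed in every stage at 8 members (13.3%, beside 4.49% of all genes), Epha7, Epha10, Efna3, Efna5, Slit1, Slit2, Slit3 and Robo2. With the filter of the Methods the count was 3 (Efna5, Slit1 and Slit3, 5.0%, beside 3.15%), since Epha7, Efna3, Slit2 and Robo2 lost the mark in NSCs and Epha10 in NFOs. Efna5, a GPI-anchored ephrin, held the widest peak of the set. Its widest H3K27me3 peak in NSCs was 5183 bp (4.18), that in OPCs 18044 bp (5.55, chr17:62863411-62881454) and that in NFOs 4465 bp (4.66). Its highest H3K4me3 fold enrichments were 12.4 (NSCs) and 13.4 (OPCs), in peaks over a TSS, and 20.4 in NFOs, in a peak 1416 bp from one. The NFO peak nearer to a TSS, 376 bp from it, was 218 bp wide at 8.45. Efna5 was the only member bivalent in all 3 stages, as were 0.501% of all genes. Epha7, another receptor for ephrin-A ligands, had its widest H3K27me3 peak at 1556 bp (2.72) in the NSC list, 5732 bp (4.17) in the OPC list and 5982 bp (4.78) in the NFO list. Its H3K4me3 stood at 7.16, 5.70 and 6.77. The NSC peak of Epha7 lay 1875 bp from another TSS and did not pass the filter. Efna3, the other ephrin with both marks, was bivalent in NSCs and OPCs, and its widest H3K27me3 peak was 2444 bp (3.00), 417 bp (5.86) and 1906 bp (4.69) in the order of the stages, the first not past the filter.

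**Figure D3:**
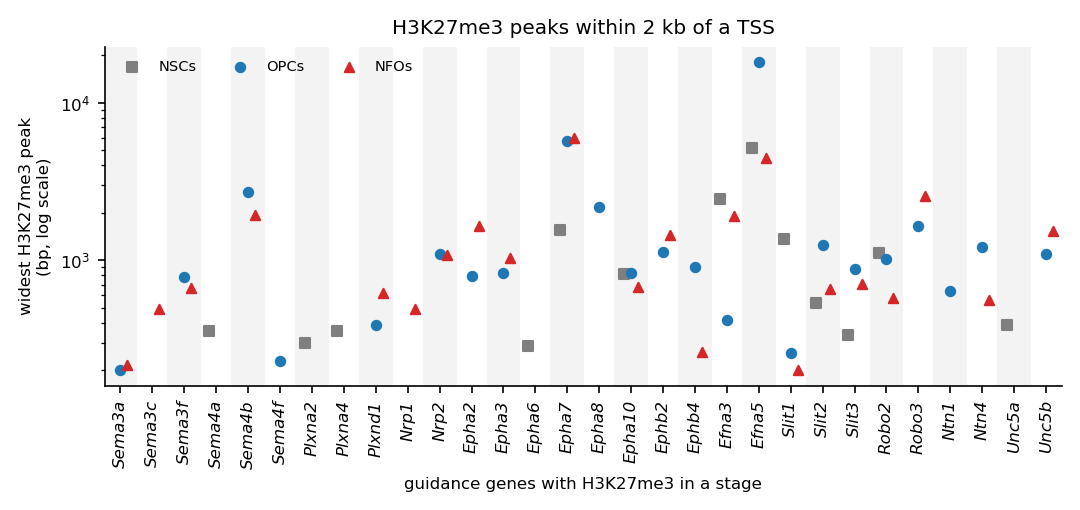
Width in bp, on a log scale, of the widest listed H3K27me3 called peak within 2 kb of a TSS for each guidance gene with such a peak, in NSCs (grey squares), OPCs (blue circles) and NFOs (red triangles). Efna5 reached 18044 bp in OPCs and Epha7 5982 bp in NFOs, and the narrowest of these peaks was 200 bp, at Slit1 in NFOs.

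The Slits differed in the width of their peaks. The widest H3K27me3 peak of Slit1 was 1358 bp (4.26) in NSCs. In OPCs, where the gene was K27 only, it was 257 bp (15.8), and in NFOs 200 bp (7.83). Slit2, which had peaks of both marks at several TSS, had in its widest H3K27me3 peak 534 bp at 3.22 (NSCs), 1251 bp at 5.65 (OPCs) and 653 bp at 4.08 (NFOs). The gene was mixed in each stage, with H3K4me3 at up to 6.75 (NSCs), 8.70 (OPCs) and 4.08 (NFOs). Slit3 was the only member K27 only in NSCs, with peaks of 337 bp (3.91) and 331 bp (4.20), and was mixed later. At Slit3 a H3K4me3 peak of 215 bp (10.3) in OPCs began at the same base as a H3K27me3 peak of 245 bp (11.4), and the same start was listed for both marks in NFOs. Peaks of both marks whose 2 ends lay within 100 bp of each other were listed near a TSS of 2 members in NSCs (Epha6, Epha10), 1 in OPCs (Slit3) and 3 in NFOs (Epha10, Slit1, Slit3), beside 1.14%, 0.351% and 0.788% of all genes. Without such pairs Slit3 was K27 only in OPCs, Slit1 K4 only in NFOs, Epha10 without a mark in NFOs and Epha6 K4 only in NSCs. What such pairs stand for was not tested. Robo2, a receptor of the Slits, was bivalent in NSCs and OPCs, with H3K4me3 at 9.88, 6.56 and 4.96 in the 3 stages and H3K27me3 peaks of 1109 bp (2.78, not past the filter), 1023 bp (4.31) and 572 bp (3.61).

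H3K27me3 was listed in NSCs alone at 5 members, Sema4a, Plxna2, Plxna4, Epha6 and Unc5a (8.33%, beside 7.74% of all genes). Their peaks were 286 to 387 bp wide and lay between 1442 and 1769 bp from the nearest TSS. Plxna2, a plexin that works with neuropilins, was bivalent in NSCs, where a H3K4me3 peak of 216 bp overlapped a H3K27me3 peak of 300 bp and a H3K27me3 peak farther than 2 kb out overlapped the end of the H3K4me3 peak of 4379 bp (9.11) at its TSS. It was K4 only in OPCs (6.05) and NFOs (4.59). H3K27me3 was listed in OPCs alone at Sema4f, Epha8 and Ntn1 (5.0%, beside 5.53% of all genes). Their peaks were 228 bp (4.66), 2174 bp (3.96) and 637 bp (3.99) wide. Epha8, an Eph receptor of the A class, had weak H3K4me3 at 3.57 in NSCs and 3.58 in OPCs and was bivalent in OPCs. In NFOs alone H3K27me3 was listed at Sema3c and Nrp1 (3.33%, beside 1.27% of all genes). Sema3c, a secreted semaphorin, had H3K4me3 at 7.55, 5.57 and 4.85 in the order of the stages, and its H3K27me3 peak of 492 bp (3.42) had an FDR of 0.0623. Nrp1, the neuropilin that binds SEMA3A, had H3K4me3 at up to 9.08 in NSCs and 6.22 in OPCs and none in NFOs, where a H3K27me3 peak of 488 bp (3.68) was listed.

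H3K4me3 was listed in NSCs and OPCs and not in NFOs at 24 members (40.0%, 27.6 to 53.5), beside 17.7% of all genes. With the fold enrichment above 3.5 and FDR filter the count was 24 (beside 21.6%), with other members in part. Above 5 it was 22 (36.7%, 24.6 to 50.1), an interval that held the 26.9% of all genes. Of the members with H3K4me3 in OPCs, 24 of 54 had none in NFOs (44.4%), beside 30.6% of all such genes. Of these, 12 were K4 only in NSCs and OPCs and had no mark in NFOs: Sema3e, Sema4g, Sema6b, Plxna1, Plxnb1, Plxnb2, Plxnc1, Efna1, Efna2, Efna4, Efnb3 and Robo1. Of the 7 plexins, 5 were among the 24, Plxna1, Plxna4, Plxnb1, Plxnb2 and Plxnc1, as were both neuropilins. At the plexins the H3K4me3 fold enrichment in NSCs and OPCs was 9.10 and 5.19 for Plxna1, 8.28 and 6.02 for Plxna4, 6.19 and 4.40 for Plxnb1, 6.81 and 4.17 for Plxnb2, and 8.12 and 5.52 for Plxnc1, the receptor of SEMA7A. Each was the lower in OPCs. At the ephrins it was 4.70 and 3.77 for Efna1, 6.00 and 6.40 for Efna2, 8.05 and 4.31 for Efna4, and 3.30 and 5.96 for Efnb3, so that 2 were lower and 2 higher in OPCs. Robo1, the main receptor of SLIT2 in axons, had 8.58 and 5.69. At the semaphorins it was 5.98 and 4.89 for Sema3e, the ligand of PLXND1, 5.53 and 3.80 for Sema4g and 7.03 and 7.57 for Sema6b. The members not listed in NFOs had the weaker peaks in OPCs, with a median H3K4me3 fold enrichment of 5.35 (3.58 to 7.57), against 8.50 (4.31 to 16.5) where the peak was kept. Over all genes the medians were 5.28 and 7.14. The NFO list also lacked H3K4me3 at the NFO markers Mbp, Mog, Mag and Enpp6, of which only Mbp had it in OPCs. That list held 21736 H3K4me3 peaks of a median width of 256 bp, and the OPC list 18284 of 987 bp. The part of the NFO list's sensitivity in these counts was not tested.

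K4 only was the state of 16 members in every stage (26.7%, beside 29.9% of all genes): Sema3d, Sema4c, Sema4d, Sema5a, Sema5b, Sema6a, Sema6c, Sema6d, Sema7a, Epha4, Epha5, Ephb1, Ephb3, Ephb6, Efnb2 and Dcc. Ephb3, a receptor for ephrin-B ligands, had H3K4me3 at 11.1 (NSCs), 13.6 (OPCs) and 20.3 (NFOs), and Sema6c, a transmembrane semaphorin, at 10.1, 16.5 and 19.3. Ephb6, an Eph receptor whose kinase domain is inactive, had 9.79, 10.3 and 18.7. Over the same stages their widest H3K4me3 peaks became narrower, as in the lists at large. The median widest peak was 2160, 1370 and 579 bp over all genes with one and 2350, 1400 and 865 bp over such members. The widest peaks were 3623, 2843 and 360 bp at Ephb3, 3114, 1115 and 821 bp at Sema6c, and 1655, 1429 and 313 bp at Ephb6. The NFO peaks of Ephb3 and Ephb6 lay 342 and 484 bp from the nearest TSS. Sema6a, a ligand of plexin-A proteins, had the widest H3K4me3 peak of the set in OPCs, 5437 bp, and 3090 bp in NFOs. Dcc, the attractive netrin receptor, had 10.9, 9.61 and 9.41. Sema5a, a semaphorin with thrombospondin repeats, had 11.7, 11.6 and 12.2, Epha5 had 11.9, 11.1 and 11.7, and Epha4, which binds ephrins of both classes, had 9.04, 9.62 and 9.0. Others were lowest in NFOs: Sema3d had 7.84, 7.61 and 4.0, Sema4d, the ligand of PLXNB1, had 6.35, 7.06 and 4.10, and Ephb1 had 8.43, 6.76 and 3.25, the last with an FDR of 0.0726, which did not pass the filter of the Methods. Sema7a, a GPI-anchored semaphorin, had 9.41, 7.05 and 5.30. Efnb2, a transmembrane ephrin, had 11.2, 8.68 and 10.9. Fold enrichments come from separate lists and their order across stages was not tested. Sema3b and Sema3g, both secreted class 3 semaphorins, had no peak of either mark in any stage.

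OLIG2 peaks were listed at 26 of 60 members in OPCs (43.3%, 30.6 to 56.8), beside 16.5% of all protein-coding genes, and at 32 in NFOs (53.3%, 40.0 to 66.3), beside 28.2%. Both lists had one at 20 members (33.3%, beside 9.79%), and 22 members were in neither (36.7%, beside 65.1%). Guidance genes are long, with a median length of 87.8 kb against 17.4 kb over all genes. Counted per length, the members held 0.324 OLIG2 peaks per 100 kb in OPCs and 0.702 in NFOs, below the 0.402 and 0.838 of all genes. Of the members under 30 kb, 4 of 23 had a peak in OPCs (17.4%, beside 8.52% of all genes of that length) and 5 of 23 in NFOs (21.7%, 15.0%). From 30 to 100 kb it was 3 of 7 in both (42.9%), beside 23.0% and 42.9%. In the class of 100 to 300 kb, 12 of 17 members had a peak in OPCs (70.6%, beside 42.3% of all genes of that length) and 13 of 17 in NFOs (76.5%, 68.2%). Among those of 300 kb or more it was 7 of 13 (53.8%, 70.0%) and 11 of 13 (84.6%, 91.2%).

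**Figure D4:**
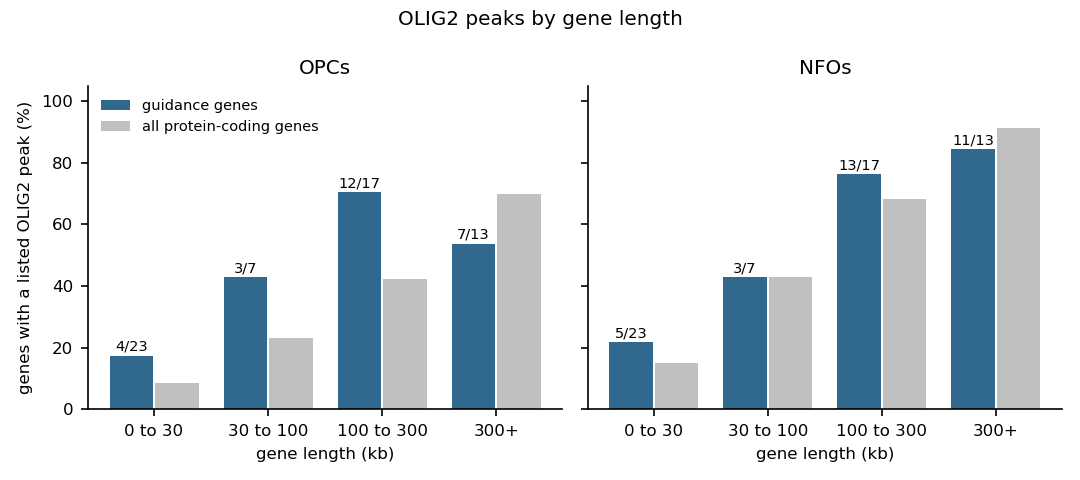
Percentage of genes with a listed OLIG2 called peak in the gene or 5 kb upstream, by gene length in kb, in OPCs (left) and NFOs (right), for guidance genes (blue, with the count of genes) and all protein-coding genes (grey). Over all protein-coding genes in NFOs the share was 15.0% in the shortest and 91.2% in the longest class.

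The members held 36 OLIG2 peaks in OPCs, with a median fold enrichment of 8.28 (2.98 to 20.7), and 78 in NFOs, with a median of 8.16 (2.06 to 22.9). Over all genes the medians were 8.16 and 8.28. Summits lay in introns at 31 of 36 peaks in OPCs and 71 of 78 in NFOs. Peaks that reached within 1 kb of a TSS numbered 3 in OPCs (8.33%) and 5 in NFOs (6.41%), beside 925 of 4397 and 1346 of 9243 peaks over all genes. Of 36 OPC peaks, 7 lay on a H3K27me3 peak of that stage (19.4%, beside 10.1%), and 5 on a H3K4me3 peak (13.9%, 17.5%). By state, OLIG2 peaks were listed in NFOs at 13 of 18 K4 only members (72.2%, beside 40.1% of all K4 only genes), 3 of 5 bivalent (beside 31.8%), 5 of 8 mixed (62.5%, 48.5%), 6 of 9 K27 only (66.7%, 27.1%) and 5 of 20 with no mark (beside 17.8%). In OPCs they were listed at 13 of 34 K4 only members (38.2%, 22.3%), 4 of 7 bivalent (57.1%, 23.6%), 7 of 13 mixed (53.8%, 28.7%), 1 of 3 K27 only (33.3%, 12.3%) and 1 of 3 with no mark (33.3%, 5.0%). These shares were not adjusted for length.

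The highest fold enrichments in OPCs were at Ephb1 (20.7), Epha10 (15.6), Ephb3 (14.8), Sema3c (14.6), Sema3a (12.4) and Plxnc1 (10.4). The Ephb1 peak lay in an intron 31.1 kb from the nearest TSS, that of Ephb3 0.135 kb upstream of the TSS and that of Sema3a in an exon 111 bp from one. In NFOs they were at Ephb3 (22.9), Plxna4 (17.0), Nrp1 (16.8), Sema5b (16.4), Slit3 (16.3) and Ntn1 (16.3), and all but the peak at Ephb3, which was 0.66 kb from the TSS, were over 9 kb from one. Ephb3 was thus high in both lists. The most peaks of 1 member were 3 in OPCs, at Plxnc1 and Efna5, and 7 in NFOs, at Plxna4. Efna5 and Dcc held 6 each in NFOs, and those of Efna5 had fold enrichments between 8.76 and 15.9. Of the 6 at Dcc, the highest was 13.3, 1.1 kb from a TSS, and 2, at 3.16 and 2.79, had an FDR of 0.166 and 0.247.

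**Figure D5:**
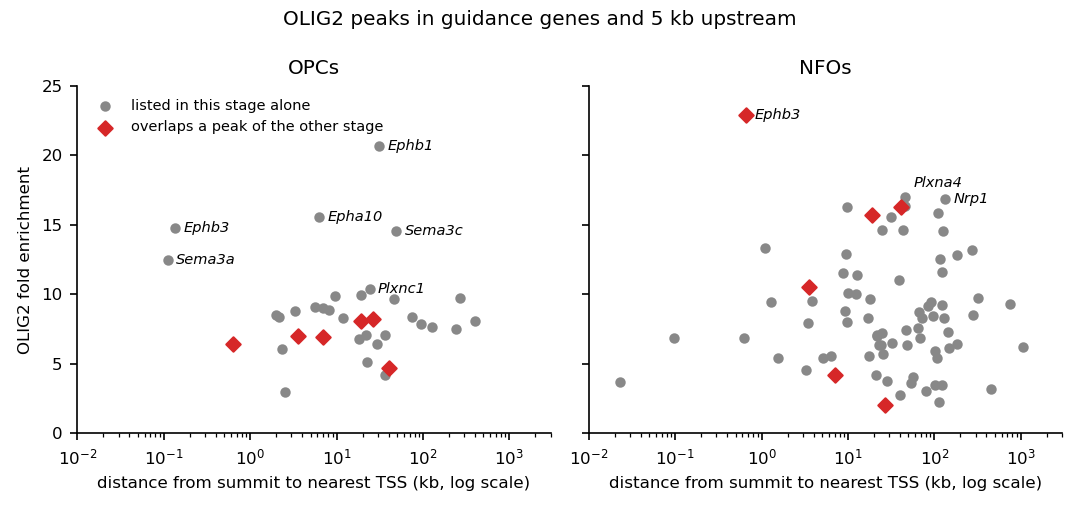
OLIG2 fold enrichment of each called peak at a guidance gene against the distance from its summit to the nearest TSS in kb, on a log scale, in OPCs (left) and NFOs (right). Red diamonds overlap a peak of the other stage. Most peaks lie beyond 1 kb of a TSS, and the highest in NFOs is at Ephb3, at 22.9.

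Only 6 OLIG2 peaks overlapped between stages, 16.7% of the OPC and 7.69% of the NFO peaks at members, beside 15.9% and 7.54% over all genes. They lay in introns of Plxna2 (7.02 in OPCs, 10.5 in NFOs), Plxna4 (6.95 and 4.18), Ephb3 (6.45 and 22.9), Ephb4 (8.26 and 2.06), Efna5 (8.12 and 15.7) and Slit3 (4.73 and 16.3). The NFO peak of Ephb4 had an FDR of 0.505, and that of Plxna4 an FDR of 0.0532, so neither passed the filter of the Methods, nor did the OPC peak of Slit3 at 4.73. With the filter 3 shared peaks were left. Of these genes, Efna5 was bivalent in both stages, Slit3 mixed, Ephb4 K27 only and Ephb3 and Plxna2 K4 only. The 3 shared peaks with the highest fold enrichment are shown, from the NFO list, on the plus strand of mm10. They lie at chr16:21205297-21205532 (Ephb3), chr11:35503609-35503844 (Slit3) and chr17:62861976-62862211 (Efna5).
Ephb3, shared: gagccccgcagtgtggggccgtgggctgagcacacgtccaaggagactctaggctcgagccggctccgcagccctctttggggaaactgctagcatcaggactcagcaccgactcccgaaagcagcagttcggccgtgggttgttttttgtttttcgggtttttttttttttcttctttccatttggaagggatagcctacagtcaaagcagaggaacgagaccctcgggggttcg
Slit3, shared: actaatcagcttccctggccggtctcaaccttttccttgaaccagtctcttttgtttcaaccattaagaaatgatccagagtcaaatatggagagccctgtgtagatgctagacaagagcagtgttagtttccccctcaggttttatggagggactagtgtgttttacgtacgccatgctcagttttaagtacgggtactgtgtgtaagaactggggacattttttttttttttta
Efna5, shared: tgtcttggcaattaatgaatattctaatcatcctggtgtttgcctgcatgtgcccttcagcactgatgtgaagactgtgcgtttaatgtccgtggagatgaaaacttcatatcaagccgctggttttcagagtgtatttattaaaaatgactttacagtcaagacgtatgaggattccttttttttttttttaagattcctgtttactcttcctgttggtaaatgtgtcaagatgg
For comparison, the OPC peaks with the highest fold enrichment at Ephb1 (chr9:101971928-101972157) and at Ephb3 (chr16:21204505-21204734) are shown likewise, chosen after their values were seen because they hold the E-boxes CAGCTG or CATCTG (read as CAGATG on the other strand), in capitals.
Ephb1, OPC: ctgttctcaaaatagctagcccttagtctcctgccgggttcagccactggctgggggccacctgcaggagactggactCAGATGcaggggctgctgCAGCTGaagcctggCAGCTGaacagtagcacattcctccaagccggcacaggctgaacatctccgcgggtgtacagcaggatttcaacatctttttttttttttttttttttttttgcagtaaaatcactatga
Ephb3, OPC: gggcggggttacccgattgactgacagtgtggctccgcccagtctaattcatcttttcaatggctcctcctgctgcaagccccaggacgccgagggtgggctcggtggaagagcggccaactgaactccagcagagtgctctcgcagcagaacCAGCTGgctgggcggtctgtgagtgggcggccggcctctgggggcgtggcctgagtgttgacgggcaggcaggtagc
The Ephb1 peak holds 2 CAGCTG and 1 CAGATG, and that of Ephb3 holds 1 CAGCTG, just upstream of its TSS. The stronger peak of each of the 6 shared pairs holds neither motif. Within 100 bp of the summit, CAGCTG or CATCTG was found on either strand at 9 of 36 OPC peaks and 17 of 78 NFO peaks of members, beside 1995 of 7384 and 3795 of 16911 listed peaks. Among the 500 listed peaks with the highest fold enrichment the shares were 46.8% and 39.4%.

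OLIG2-bound RNA was also looked for. In the RIP-Seq, in which RNA bound to a protein is precipitated and sequenced, the 2 libraries (OLIG2 and IgG) are labelled as NFOs while the Methods describe NSCs. Sites were listed in the OLIG2 library at 4 members, Plxna2, Nrp1, Ephb4 and Dcc. None of these 4 met the 3 criteria of the Methods (tag ratio above 2, p-value below 0.01 and RPKM above 1). Of the 555 protein-coding genes with a site, 99 met all 3 (17.8%), at 999 sites. A set of 4 genes is too small to be set against this share. The paper lists far fewer binding sites, and the reason for the gap was not tested. At each of the 4 members the OLIG2 library listed more sites than the IgG library, as over all protein-coding genes (98481 and 80718). The counts were 146 and 122 at Plxna2, 47 and 41 at Nrp1, 350 and 258 at Ephb4, and 177 and 121 at Dcc. Epha6 had 0 sites in the OLIG2 and 1 in the IgG library. The highest tag count of any site was 21 for OLIG2 and 27 for IgG at Plxna2, 20 and 22 at Nrp1, 24 and 25 at Ephb4, and 14 and 20 at Dcc. These are the highest counts within each library and not those of paired sites. With no minimum RPKM, 6 sites at Nrp1 and Ephb4 met the other criteria.

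Of 19 other guidance receptors and ligands, 15 had H3K4me3 in NSCs and 11 in OPCs and in NFOs, and 4, 4 and 3 had H3K27me3. Over all protein-coding genes H3K4me3 was listed at 64.3%, 60.7% and 43.6%, and H3K27me3 at 15.1%, 16.4% and 9.56%. Unlike at the members, the number with H3K4me3 was not lower in NFOs than in OPCs. Nor was the number with H3K27me3 higher in OPCs than in NSCs. Unc5d was bivalent in NSCs and mixed later, and Ntng2 bivalent in NSCs and OPCs. The 31 genes that act downstream of the receptors, such as the collapsin response mediators, were K4 only at 27 (NSCs), 21 (OPCs) and 19 (NFOs), and H3K27me3 was listed at 3, 9 and 4. OLIG2 peaks were listed at 18 of the 31 in OPCs and 22 in NFOs, and at 7 of the 19 receptors and ligands in each stage. Over all protein-coding genes the OLIG2 shares were 16.5% in OPCs and 28.2% in NFOs, and the K4 only shares 52.1% (NSCs), 49.5% (OPCs) and 38.9% (NFOs). These counts were not adjusted for gene length.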

How the data were processed

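Called peaks from ChIP-Seq of both histone marks in the 3 cell stages (6 libraries) and of OLIG2 in OPCs and NFOs (2 libraries), and RIP-Seq sites (2 libraries) were used. Samples were grouped by their titles. The 3 input libraries were not analysed here. Of the lists of cell type markers, 1 gene is not reported here. The authors aligned reads with Bowtie2 to mm10 and kept unique alignments, then called broad histone peaks with MACS2 and OLIG2 peaks with SPP, and removed blacklisted regions. The deposited lists give the fold enrichment of each peak and the −log10 of its p-value and FDR, as the authors' callers wrote them. ASPeak gave the tag count and p-value of RIP-Seq sites and the transcript RPKM, as the authors deposited them. Depth is unknown.

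All listed peaks were used. The filter of the Methods (FDR below 0.05, fold enrichment above 3.5 for histone marks and 5 for OLIG2) was an alternative. The TSS of all GENCODE M21 transcripts were taken, overlaps needed 1 bp, and bivalent domains were merged overlapping peaks of both marks. The state assignment was tested on simulated data (2000 of 2000 genes recovered). Values were given for the members bivalent or K27 only in a stage (10 with the widest H3K27me3 peak in full), those that changed between these states, the 6 with the highest OLIG2 fold enrichment in each stage, those with an OLIG2 peak shared by both stages, and those with a RIP-Seq site that met the criteria. The members and lists were chosen with earlier results of these data known. Promoters are RefSeq sequences of GRCm38.p6. Scripts ran in Python 3.11.15 (Matplotlib 3.10.9, pysam 0.24.0, SciPy 1.17.1, pandas 2.3.3).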

Additional observations from a re-analysis of the deposited data

How the results depend on the processing

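Of 153 values recomputed under alternatives, 107 stayed within 1.5 times the value reported and 46 did not. Members with H3K27me3 in every stage numbered 3 with a fold enrichment above 3.5 (5.0%, beside 3.15% of all genes) and 1 above 5 (1.67%, 1.01%). They numbered 4 with 1 kb from the TSS (6.67%, 3.37%) and 3 with the outermost TSS only (5.0%, 3.65%). With H3K27me3 peaks of at least 1 kb they numbered 2 (3.33%, 2.13%). In each of these settings the 95% interval of the members held the share over all genes. With a fold enrichment above 3.5, bivalent members were 3 in NSCs and 3 in NFOs, K27 only members 3 in NSCs, and members with no mark 4 in NSCs. Above 5, bivalent members were 1 in NSCs, 2 in OPCs and 1 in NFOs, K27 only members 3 in NFOs, members with no mark 11, 14 and 37, members with H3K27me3 in OPCs and NFOs alone 3, and shared OLIG2 peaks 3. An overlap of 200 bp gave 3 bivalent members in each stage, and counting any bivalent domain gave 12 in OPCs and 9 in NFOs. With H3K27me3 peaks of at least 1 kb, 2 were bivalent in NFOs, 0 and 1 were K27 only in NSCs and OPCs, 5 had no mark in OPCs, 14 differed between NSCs and OPCs, and 5 had H3K27me3 in OPCs and NFOs alone. With the outermost TSS only, 0 and 5 were K27 only and 6 and 5 had no mark in NSCs and OPCs, and with 1 kb from the TSS 4 had no mark in NSCs. OLIG2 peaks above a fold enrichment of 10 numbered 6 at 6 members in OPCs and 24 at 16 members in NFOs, with 0 shared. Without the gene body they numbered 9 at 8 members and 11 at 9, with 2 shared. RIP-Seq sites met the criteria at 2 members (Nrp1, Ephb4) with no minimum RPKM and at 1 (Plxna2) with sites without an IgG site counted. The alternatives for the paths of H3K27me3 and H3K4me3 over the 3 stages and the removal of peaks matching in both marks were chosen after seeing the data. Causes were not tested. No paired analysis was possible because each condition has 1 library. The number of reads per library, which is unknown, limits every count of peaks, and a peak not listed is not shown to be absent.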
